A study of Mus musculus with 12 samples.

Results

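Chemokine ligands were examined as a gene family in mouse embryonic fibroblasts differentiating into adipocytes. Members were the protein-coding genes whose symbol is Ccl or Cxcl followed by a number alone, plus Cx3cl1 and Xcl1. This rule gave 33 genes, all of them among the 37991 gene identifiers of the count tables: 19 CC ligands, 12 CXC ligands, Cx3cl1 and Xcl1. A mean of at least 1 CPM (read counts scaled to an equal library size) over the 12 libraries was reached by 21 of the 33, which were 12 CC ligands, 8 CXC ligands and Cx3cl1. The other 12 lay below 1 CPM, and 4 of those had no read in any library. The low-count filter passed 24 members into the test among 16163 genes.

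Poly(A) RNA was sequenced on day 6 after the start of adipocyte differentiation. The C57BL/6N embryos, all male and taken at E15.5, were wild type (WT), Gadd45a-deficient (Gadd45a-KO), Ing1-deficient (Ing1-KO) or deficient in both genes (DKO), and each genotype had 3 libraries. Fibroblasts of all 4 genotypes were passaged 4 times and received the same cocktail for 48 h once past confluence: IBMX at 0.5 mM, dexamethasone at 1 µM, rosiglitazone at 2 µM and insulin at 10 µg/ml. Insulin medium followed. The genotypes are those that the labels give, and the reads of both targeted genes are set against them below. Whether the 3 libraries of a genotype stem from different embryos or dishes is not in the labels, and p-values therefore speak of the spread among the libraries themselves.

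Chemokines are small secreted proteins that steer migrating cells along a gradient by binding G protein-coupled receptors. They are classed by the spacing of the first cysteines of the mature protein, and many sit side by side in the genome in families that arose by duplication. In adipose tissue they are best known for drawing monocytes and other leukocytes, and both fibroblast-like precursors and resident macrophages make them.

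The class is visible in the coding sequence, and the stretches below show it for the members on which the results turn. They were taken from GENCODE M21 coding sequences (build GRCm38) and run 5′ to 3′ on the coding strand, with the first pair of cysteine codons in capitals.
Ccl2 (chr11:82036488-82036523, plus strand): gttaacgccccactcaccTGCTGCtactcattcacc
Ccl7 (chr11:82046520-82046555, plus strand): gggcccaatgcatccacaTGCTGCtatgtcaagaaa
Cxcl5 (chr5:90759709-90759747, plus strand): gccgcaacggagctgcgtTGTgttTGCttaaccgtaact
Cxcl15 (chr5:90795210-90795248, plus strand): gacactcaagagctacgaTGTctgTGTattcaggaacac
Cxcl12 (chr6:117171490-117171528, plus strand): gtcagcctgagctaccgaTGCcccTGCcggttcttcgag
Cxcl16 (chr11:70459115-70459153, minus strand): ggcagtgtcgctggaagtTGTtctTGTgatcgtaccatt
Cx3cl1 (chr8:94778033-94778077, plus strand): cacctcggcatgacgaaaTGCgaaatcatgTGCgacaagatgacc
The cysteine codons touch in Ccl2 and Ccl7, are 1 codon apart in the 4 CXC genes and 3 codons apart in Cx3cl1. Codons for glutamate, leucine and arginine stand directly before the first cysteine in Cxcl5 and Cxcl15, as in 5 of the 12 CXC members in all (with Cxcl1, Cxcl2 and Cxcl3). This triplet of residues is the known mark of neutrophil-attracting CXC ligands, and Cxcl12 and Cxcl16 lack it.

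Promoters were searched for a form of the NF-kappaB motif on both strands, spelled GGGA, then any 2 bases, then TTCC. RefSeq windows of 300 bases (250 before the start site to 50 after it, build GRCm38.p6) were at hand for 23 members, and 5 of these held the motif: Ccl1, Cxcl1, Cxcl2, Cxcl3 and Cxcl10. No window was at hand for Ccl2, Ccl4, Ccl5, Ccl7, Ccl11, Ccl24, Ccl26, Cxcl5, Cxcl16 and Cxcl17, and their promoters were not searched. Of 32851 such windows of all genes, 1.47% held the motif. Overlapping matches on the 2 strands were taken as one site. Cxcl1, Cxcl2 and Cxcl3, of the same run of genes on chromosome 5, are shown because they have near-identical sites. Cxcl15 lies between Cxcl3 and Cxcl1, and its window did not hold the motif. They were picked for display after their values were seen, and the motif is in capitals.
Cxcl1 (chr5:90891159-90891198, plus strand): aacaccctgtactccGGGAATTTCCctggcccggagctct
Cxcl2 (chr5:90903787-90903826, plus strand): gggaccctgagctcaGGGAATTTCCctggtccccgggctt
Cxcl3 (chr5:90786013-90786052, plus strand): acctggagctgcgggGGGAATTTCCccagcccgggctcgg
The sites begin 71, 97 and 73 bases before the start sites of Cxcl1, Cxcl2 and Cxcl3.

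Gene reads per library lay between 42891627 and 52860419. Ing1 followed its label in Ing1-KO: WT libraries had 45.4 ± 2.26 CPM (SD, n = 3) of it and Ing1-KO 1.22 ± 0.326 CPM. Gadd45a did not follow its label: WT had 15.8 ± 1.82 CPM, whereas libraries labelled Gadd45a-KO had 143 ± 1.75 CPM and those labelled DKO 140.1 ± 1.90 CPM. Fibroblast markers summed to between 40545 and 51609 CPM, with all 12 genes of the list above 1 CPM. Adipocyte markers, 20 genes, summed to 4157 to 7921 CPM in WT, 2842 to 3613 in the libraries labelled Gadd45a-KO, 1017 to 6689 in Ing1-KO and 772 to 924 in those labelled DKO. Markers of macrophages and other leukocytes, 25 genes of which none was at 0, summed to 4969 to 5744, 2674 to 7753, 4999 to 5872 and 9383 to 9904 CPM in the same order. T and B lymphocyte markers did not exceed 1.71 CPM in sum, with Cd3e and Ncr1 at 0 reads, and neutrophil and mast cell markers did not exceed 1.52 CPM, with S100a9, Ly6g, Tpsb2 and Fcer1a at 0. Endothelial markers summed to at most 9.53 CPM and epithelial markers to at most 7.83 CPM. In bulk RNA, fewer cells of a type and less RNA per cell cannot be told apart.

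The family was uneven in level. Cxcl12, a retention signal for progenitor cells, took 34.8% of the summed mean CPM of the 33 genes, and the 4 members with most reads (Cxcl12, Cxcl5, Ccl7 and Ccl2) took 71.1%. Per kilobase of exon, with the exons of all protein-coding transcripts of a gene pooled, the order changed. The pooled length can exceed that of the transcripts in use, which were not told apart. Ccl7 came first at 118 CPM per kb and Ccl2 next at 115, both monocyte attractants. Cxcl5, a neutrophil attractant, followed at 97.3 CPM per kb, and the libraries of these 3 genes overlapped. Cxcl12, whose exons span 7160 bases against 801 in Ccl7, stood at 45.5 CPM per kb, Cxcl14 at 33.5, Ccl9 at 23.3 and Cxcl16 at 17.5. Cxcl1, Ccl11, Ccl12, Cx3cl1 and Ccl5 lay between 7.67 and 14.8 CPM per kb. The remaining 9 expressed members were at 5.02 CPM per kb (Ccl6) or below, down to 0.691 (Cxcl2).

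**Figure D1:**
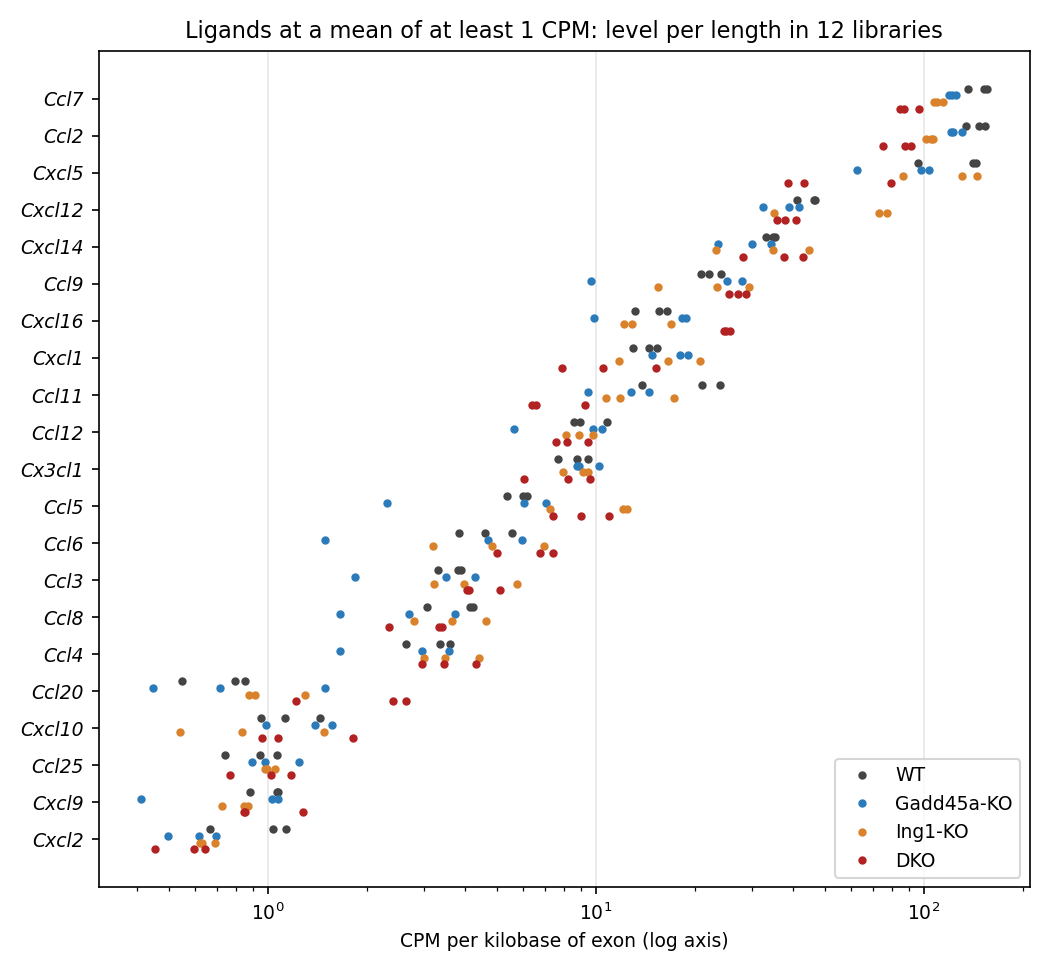
Level of the 21 members with a mean of at least 1 CPM, as CPM per kilobase of exon on a log axis, with 1 point per library coloured by genotype. Ccl7, Ccl2 and Cxcl5 lie highest (means of 118, 115 and 97.3 CPM per kb) and Cxcl2 lowest (0.691).

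Relative to WT, most members did not pass the test in any genotype. In the libraries labelled Gadd45a-KO, 0 of 24 tested members were called by edgeR's quasi-likelihood test (Benjamini-Hochberg adjusted p under 0.05), beside 0.0124% of all genes. At an unadjusted p under 0.05 there were 4 (Ccl2, Ccl7, Ccl11 and Cxcl2, all lower), and DESeq2 called 0. In Ing1-KO Ccl2 and Ccl7 fell, beside 4.32% of all genes called. One more call there, Cxcl15, is included in the counts below but not read as a result, since no WT library holds more than 4 of its reads and it entered the test through the mutant libraries. In the libraries labelled DKO 6 were called, beside 13% of all genes: Ccl2, Ccl7, Ccl11, Cxcl5 and Cxcl2 fell and Ccl20 rose. The lower calls among them, 5, stand beside 7.09% of all genes called lower. The count of 6 was 2 without replicate 1 of WT or replicate 1 labelled DKO, and 3 without replicate 3 of WT or replicate 2 labelled DKO. The median log2 fold change of the 24 was -0.21, 0.01 and -0.04 in the 3 comparisons, against -0.0010, 0.0031 and -0.0026 over all genes tested. The 3 comparisons share their WT libraries.

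**Figure D2:**
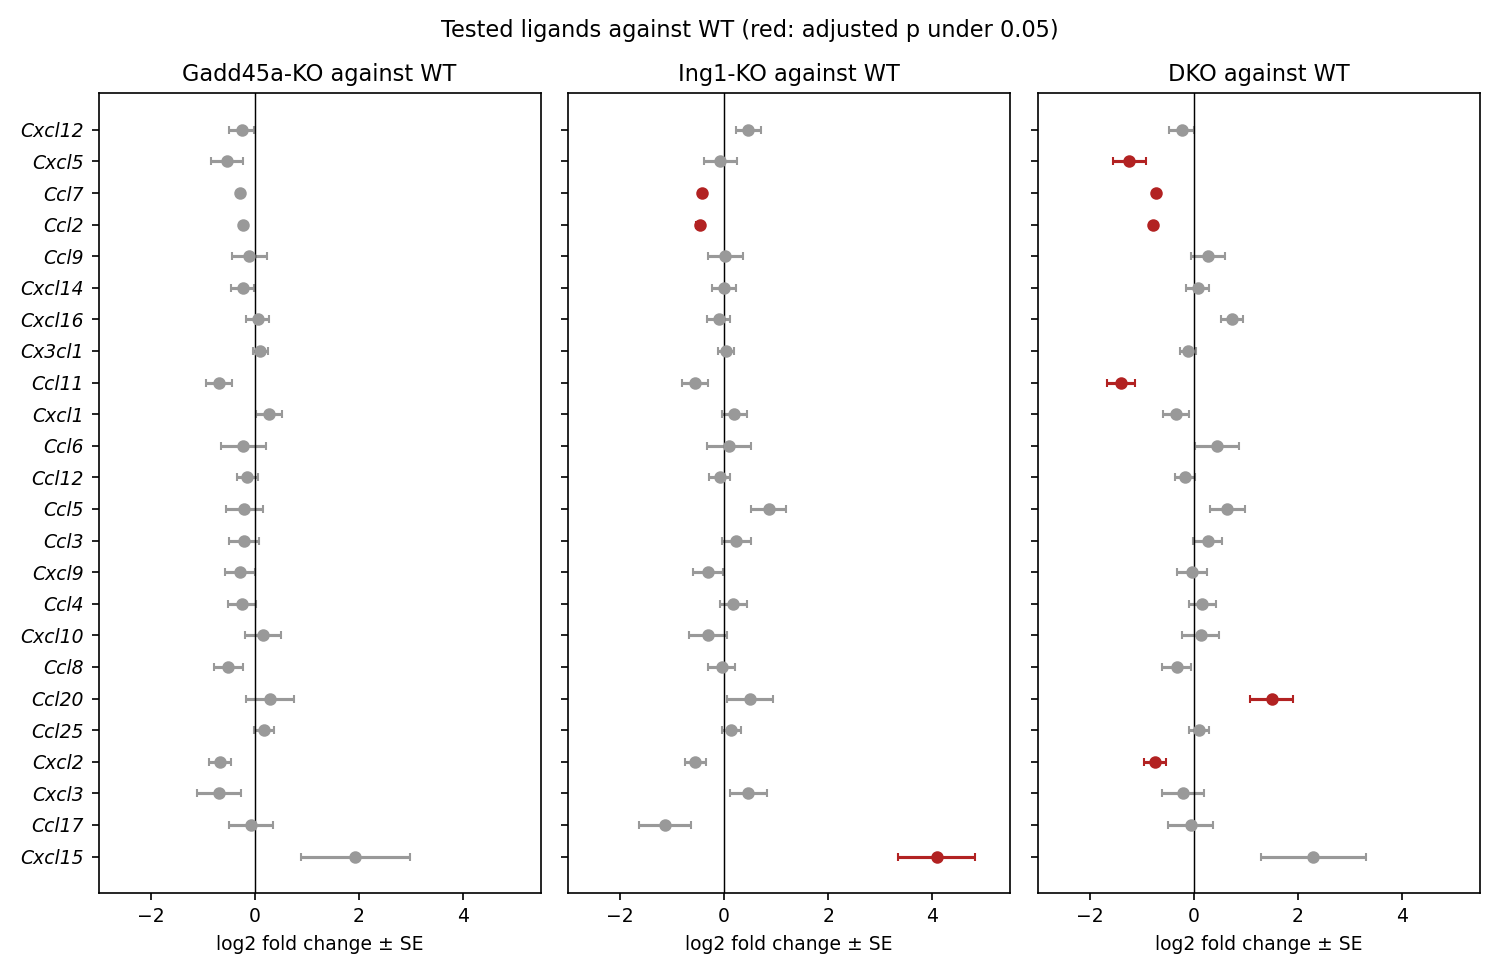
Log2 fold change with SE of the 24 tested members against WT, 1 panel per mutant genotype, in order of mean CPM from the top, with calls in red. Panels show 0, 3 and 6 calls, and 1 of the 3 is Cxcl15, which is near 0 reads in WT and is not read as a result. Ccl2 and Ccl7 are the 2 members called lower both in Ing1-KO and in the libraries labelled DKO.

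One library stood apart in its leukocyte markers, and many members were low in it. In replicate 1 labelled Gadd45a-KO the leukocyte markers summed to 35.9% of the mean of replicates 2 and 3, while fibroblast markers stood at 98.5%. Of the 21 expressed members, 9 lay under 0.6 of the mean of the other two libraries, whereas 5.54% of all genes tested did: Ccl6 at 28.1%, Ccl5 at 35.2%, Ccl9 at 36.6%, Cxcl9 at 39.1%, Ccl3 at 47.4%, Ccl4 at 50.8%, Ccl8 at 51.6%, Cxcl16 at 53.2% and Ccl12 at 55.3%. Ccl7 at 104%, Ccl2 at 107% and Cx3cl1 at 116% were not reduced there, and Ccl20 stood at 258%. These are ratios within 1 genotype, given with no test. Without this library the calls were 0, 4 and 7 in the comparisons of the libraries labelled Gadd45a-KO, Ing1-KO and DKO with WT, in place of 0, 3 and 6. Ing1-KO was uneven too. Over the tested genes, its replicates 1 and 3 differed most of all pairs within a genotype. Their chi-square per degree of freedom was 81.2, against 47.7 for replicates 1 and 2 labelled Gadd45a-KO.

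**Figure D3:**
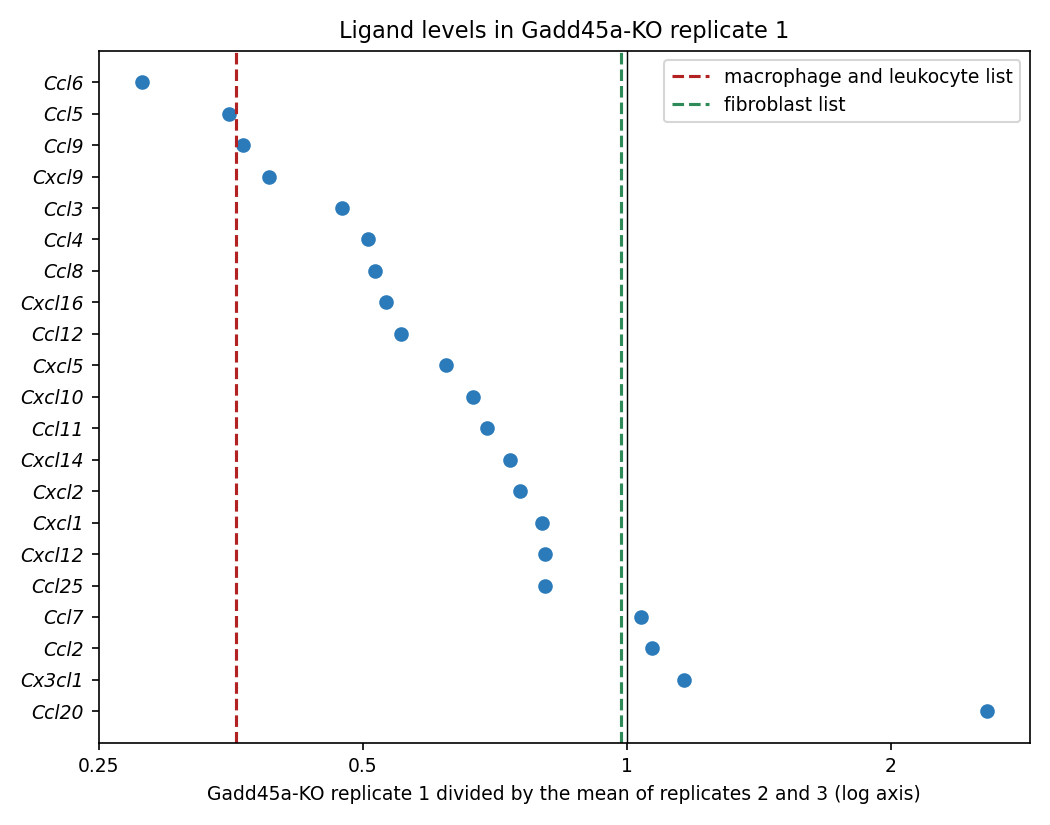
Level of each expressed member in replicate 1 labelled Gadd45a-KO divided by the mean of replicates 2 and 3, on a log axis, with the same ratio for the summed leukocyte and fibroblast lists as dashed lines. Ccl6, Ccl5, Ccl9 and Cxcl9 lie near the leukocyte line (0.359), and Ccl7 and Ccl2 near 1.

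Among monocyte-attracting CC ligands, Ccl2 (ENSMUSG00000035385), which encodes the CCR2 ligand MCP-1, was measured at 119.8, 109 and 125 CPM in the 3 WT libraries. It stood at 106, 98.5 and 99.7 CPM in those labelled Gadd45a-KO, at 86.7, 82.5 and 85.5 CPM in Ing1-KO and at 60.9, 70.9 and 74.4 CPM in those labelled DKO. No 2 genotypes overlapped, and the order from high to low was WT, Gadd45a-KO, Ing1-KO, DKO. Against WT, Ccl2 fell by 0.47 on the log2 scale in Ing1-KO (SE 0.0710, edgeR adjusted p = 0.00788) and by 0.78 in the libraries labelled DKO (SE 0.0715, edgeR adjusted p = 0.000573). The log2 fold change of -0.22 in those labelled Gadd45a-KO did not pass (SE 0.0708, edgeR adjusted p = 0.88).

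Ccl7 (ENSMUSG00000035373) encodes MCP-3, a second ligand of CCR2, and is the next gene along from Ccl2. Its 3 WT libraries stood at 125, 109 and 122 CPM. The libraries labelled Gadd45a-KO stood at 100.2, 95.4 and 97.7 CPM, Ing1-KO at 86.1, 87.9 and 91.8 CPM, and those labelled DKO at 67.8, 69.4 and 77.5 CPM. The genotypes again kept apart in the same order. Ccl7 fell by 0.42 in Ing1-KO (SE 0.0613, edgeR adjusted p = 0.00654) and by 0.73 in the libraries labelled DKO (SE 0.0617, edgeR adjusted p = 0.000388), with -0.28 and an adjusted p of 0.88 in those labelled Gadd45a-KO. Of all 16163 genes tested, 8 (0.0495%) had 4 genotypes without overlap in this order, and Ccl2 and Ccl7 are 2 of these 8. That count was added after the values had been seen. Its order was read from Ccl2 and Ccl7, so their place among the 8 was fixed beforehand and the count cannot speak for the pattern.

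Adipocyte markers had the same sign: all 20 had negative log2 fold changes in each mutant, with medians of -1.02, -0.91 and -3.58 in the libraries labelled Gadd45a-KO, in Ing1-KO and in those labelled DKO. In the last, 17 of the 20 were called lower, beside 7.09% of all genes called lower. In the first 2, edgeR called 0 of the 20 markers, with 6 and 3 at an unadjusted p under 0.05, and DESeq2 called 0 and 1. Within Ing1-KO their sum ran from 6689 to 1017 CPM while Ccl2 stayed between 82.5 and 86.7 CPM and Ccl7 between 86.1 and 91.8 CPM. In WT, replicate 2 was lowest for both genes and for the marker sum. The part of that list in the fall of Ccl2 and Ccl7 was not tested.

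The factorial contrasts gave the same pair. Ing1-KO together with the libraries labelled DKO, set against WT with those labelled Gadd45a-KO, had log2 differences of -0.52 for Ccl2 and -0.44 for Ccl7 (edgeR adjusted p = 0.000566 for each), 2 of 3 members called beside 8% of all genes. The other was Cxcl15, given below by its reads. Without Gadd45a-KO replicate 1 or Ing1-KO replicate 3 that contrast called 6 or 5 members. For the genotypes labelled as lacking Gadd45a the corresponding values were -0.26 for Ccl2 (edgeR adjusted p = 0.0457) and -0.29 for Ccl7 (edgeR adjusted p = 0.026), the 2 members called beside 2.44% of all genes. Those last 2 calls were both lost without any 1 of 8 libraries (WT 1 or 3, Gadd45a-KO 2 or 3, Ing1-KO 1 or 2, DKO 1 or 2), while 5 members were called without WT replicate 2 or Ing1-KO replicate 3. Against the libraries labelled Gadd45a-KO, those labelled DKO were lower by 0.56 for Ccl2 (edgeR adjusted p = 0.0104) and by 0.45 for Ccl7 (edgeR adjusted p = 0.0116), the 2 members called beside 1.26% of all genes. The Ccl7 call of that pair was lost without replicate 1 or 2 labelled DKO. The interaction term was -0.09 for Ccl2 and -0.03 for Ccl7 and called 0 members (0% of all genes by edgeR). It gave 3 members at an unadjusted p under 0.05 (Cxcl16, Cxcl1 and Cxcl15, the last not read as a result), and DESeq2 called 0.

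Ccl12 and Ccl8, MCP-5 and MCP-2, lie in the same run of neighbours on chromosome 11, in the order Ccl2, Ccl7, Ccl11, Ccl12, Ccl8 and Ccl1, with no other coding gene between them. Ccl12 was measured in WT at 5.07 ± 0.651 CPM (SD, n = 3), and Ing1-KO gave 4.79 ± 0.454 CPM. Libraries labelled Gadd45a-KO gave 4.64 ± 1.42 CPM and those labelled DKO 4.51 ± 0.516 CPM. Its log2 fold changes against WT were between -0.17 and -0.08 and none passed. Ccl8 ranged from 0.848 to 2.37 CPM over the 12 libraries, with all genotypes overlapping. The receptor CCR2 itself was scarce, with Ccr2 between 0.0629 and 0.259 CPM in every library.

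Ccl11 (ENSMUSG00000020676), between Ccl7 and Ccl12, encodes eotaxin, the eosinophil attractant that binds CCR3. WT libraries stood at 25.9, 14.96 and 22.8 CPM, those labelled Gadd45a-KO at 10.2, 15.7 and 13.8 CPM, Ing1-KO at 18.8, 12.8 and 11.7 CPM and those labelled DKO at 6.93, 7.11 and 10.0 CPM. The libraries labelled DKO lay below all 9 others for this gene, while WT overlapped both single mutants. Ccl11 fell by 1.40 against WT in those labelled DKO (SE 0.263, edgeR adjusted p = 0.0124), a call lost without replicate 1 of WT or replicate 1 labelled DKO (highest adjusted p over all alternatives 0.0621). WT replicate 2, lowest of its group, was also lowest in summed adipocyte markers (4157 CPM against 7921 and 7317). Among the libraries labelled Gadd45a-KO the lowest, replicate 1, had instead the highest marker sum (3613 CPM against 3603 and 2842). The part of that list in the result was not tested. Of the other eosinophil attractants, Ccl24 had 2 to 7 reads a library and Ccl26 none.

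**Figure D4:**
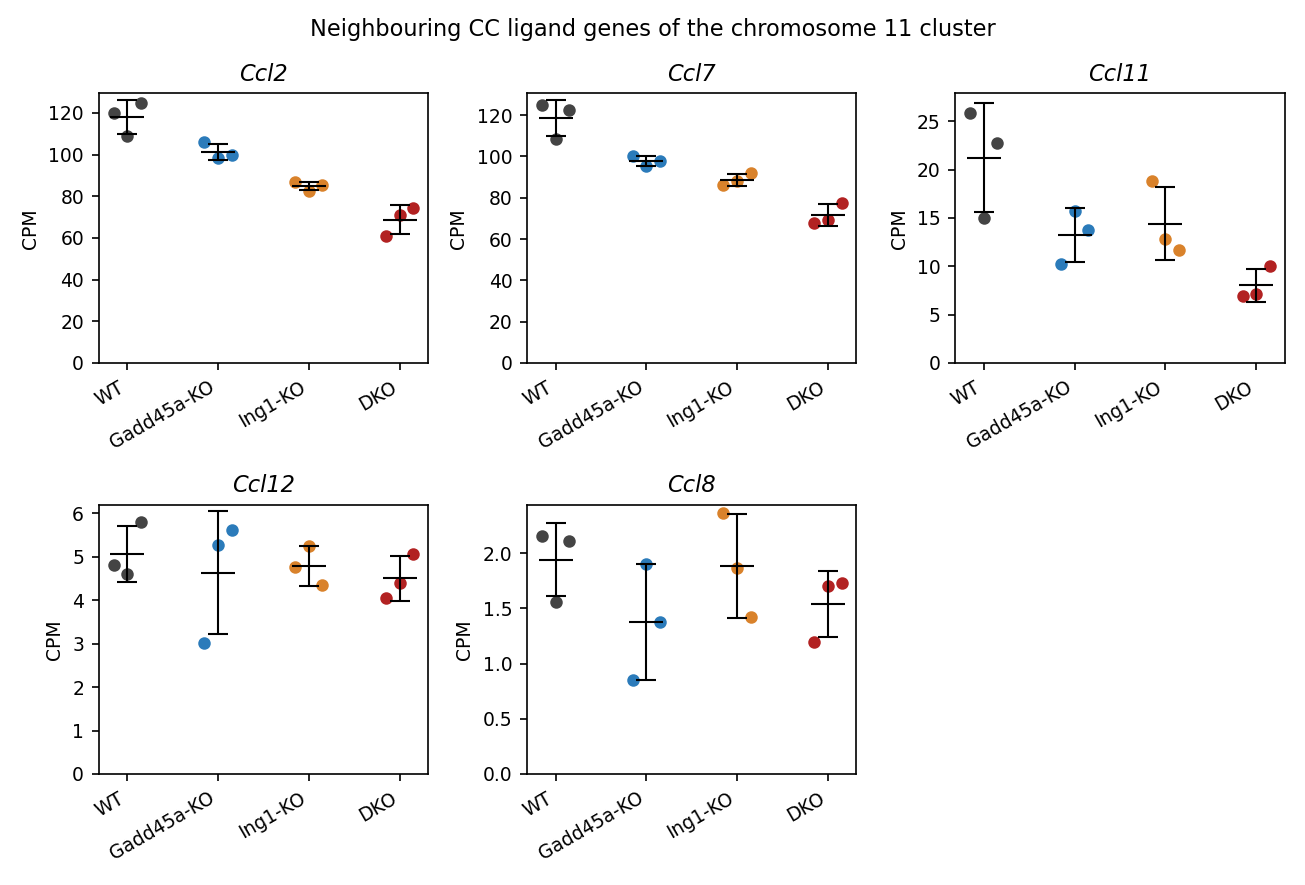
CPM of 5 neighbouring CC ligand genes of chromosome 11, with 1 point per library and the mean with SD by genotype, each panel on its own linear axis from 0. Ccl2 and Ccl7 step down over the 4 genotypes without overlap, Ccl11 is lowest in the libraries labelled DKO (6.93 to 10.0 CPM), and Ccl12 and Ccl8 overlap throughout.

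The inflammatory CC ligands grouped around CCR1 (Ccl3, Ccl4, Ccl5, Ccl6 and Ccl9) gave 0 calls of 5 in each comparison with WT by edgeR and 4 of them were among the 5 members most reduced in replicate 1 labelled Gadd45a-KO. At an unadjusted p under 0.05 there was 1, Ccl5 in Ing1-KO, and DESeq2 called 0. Ccl9, made by macrophages, was measured at 66.5, 62.8 and 72.4 CPM in WT, while libraries labelled Gadd45a-KO gave 29.1, 83.9 and 75.5 CPM. Ing1-KO gave 88.1, 70.3 and 46.6 CPM, and those labelled DKO 86.3, 81.3 and 76.6 CPM. The last group lay above WT without overlap, but its log2 fold change of 0.27 did not pass (SE 0.334, edgeR adjusted p = 0.643). Ccl5, or RANTES, stood at 3.11 ± 0.227 CPM in WT (SD, n = 3), 5.64 ± 1.55 in Ing1-KO and 4.85 ± 0.945 in the libraries labelled DKO. Its averaged Ing1 contrast, 0.85, missed the threshold (SE 0.237, edgeR adjusted p = 0.054). Ccl6 ranged from 2.15 to 10.7 CPM, Ccl3 from 1.41 to 4.41 CPM and Ccl4 from 1.09 to 2.91 CPM over the 12 libraries.

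Ccl5, Ccl9, Ccl6, Ccl3 and Ccl4 form a second run on chromosome 11, and all 5 had positive log2 fold changes against WT in the libraries labelled DKO (median 0.27). The leukocyte list had a median of 0.89 there, with 10 of 25 markers called higher and none lower, beside 13% of all genes called. In those labelled Gadd45a-KO the signs were opposite: all 5 ligands were negative (median -0.20) while 23 of 25 leukocyte markers were positive (median 0.14). Replicate 1 was the lowest of that group for each of the 5 ligands. Their sum, mostly Ccl9, was 35.0 CPM there and 102 and 90.0 CPM in replicates 2 and 3, against 76.7 to 89.0 CPM in WT. The leukocyte sums were 2674, 7753 and 7164 CPM in replicates 1, 2 and 3, against 4969 to 5744 CPM in WT. The part of that list in these values was not tested. Ccr1, a receptor gene for ligands of this group, lay between 7.74 and 28.0 CPM.

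Cxcl5 (ENSMUSG00000029371) was the most abundant neutrophil-attracting CXC ligand, per read and per length. WT libraries stood at 227, 151 and 223 CPM, those labelled Gadd45a-KO at 98.6, 163 and 154 CPM, Ing1-KO at 229, 206 and 136 CPM and those labelled DKO at 67.7, 60.5 and 125 CPM. All 3 libraries labelled DKO were below every WT and Ing1-KO library, whereas those labelled Gadd45a-KO overlapped them. Cxcl5 fell by 1.24 against WT (SE 0.318, edgeR adjusted p = 0.032) and by 1.17 against Ing1-KO (SE 0.318, edgeR adjusted p = 0.0437). The first call was lost without replicate 1 or 3 of WT or replicate 1 or 2 labelled DKO, with a highest adjusted p of 0.12 over all alternatives. The call against Ing1-KO was lost in 11 of 21 alternatives, among them the replicate block and the loss of any 1 of 8 libraries (WT 1 or 3, Gadd45a-KO 2 or 3, Ing1-KO 1 or 2, DKO 1 or 2), with a highest adjusted p of 0.141. WT replicate 2 was lowest both in Cxcl5 and in adipocyte marker sum (4157 CPM against 7921 and 7317). Among those labelled Gadd45a-KO, replicate 1 was lowest in Cxcl5, and marker sums were 3613, 3603 and 2842 CPM in replicates 1, 2 and 3. The part of that list in the Cxcl5 values was not tested.

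Cxcl2 (ENSMUSG00000058427), which encodes MIP-2, was much scarcer, also per length. It stood at 2.12, 1.24 and 1.93 CPM in WT, 0.923, 1.30 and 1.15 CPM in libraries labelled Gadd45a-KO, 1.28, 1.17 and 1.15 CPM in Ing1-KO, and 0.845, 1.10 and 1.20 CPM in those labelled DKO. WT replicate 2 lay among the mutants, and of the 3 mutants only those labelled DKO were free of overlap with WT. Cxcl2 fell by 0.74 there (SE 0.215, edgeR adjusted p = 0.0444), the call most often lost: it went in 12 of 20 alternatives, 8 of them the loss of 1 library (replicates 1 and 3 of WT, 2 and 3 labelled Gadd45a-KO, 2 of Ing1-KO, 1, 2 and 3 labelled DKO), with adjusted p from 0.0156 to 0.173.

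Cxcl1, or KC, the neighbour of Cxcl2 with the same promoter motif, was measured at 13.6 ± 1.15 CPM in WT (SD, n = 3), and libraries labelled Gadd45a-KO gave 16.5 ± 2.09 CPM. Ing1-KO gave 15.6 ± 4.28 CPM and those labelled DKO 10.7 ± 3.58 CPM. No comparison called it, and WT overlapped each mutant. Cxcl3, the third gene with the motif, had 9 to 47 reads a library and was not called. In the libraries labelled DKO against WT the log2 fold changes were -0.34 for Cxcl1 (SE 0.247), -0.74 for Cxcl2 (SE 0.215) and -0.21 for Cxcl3 (SE 0.396), and differences among the 3 genes were not tested. Cxcr2, the receptor of this group, lay between 0.206 and 0.487 CPM.

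Cxcl15 (ENSMUSG00000029375), or lungkine, a CXC ligand known from lung epithelium, rested on few reads. WT libraries had 2, 1 and 4 reads, those labelled Gadd45a-KO 17, 7 and 5, Ing1-KO 36, 74 and 19 and those labelled DKO 12, 9 and 13. No WT library reached any mutant library, and Ing1-KO lay above all the rest. The gene passed the low-count filter through mutant libraries alone, so these reads are a description and no fold or test is given. Of 3 tested epithelial markers, 2 had negative log2 fold changes in Ing1-KO against WT and 1 was called, lower, beside 4.32% of all genes called. Cdh1 averaged 5.71 ± 0.798 CPM over WT libraries against 2.84 ± 0.904 over those of Ing1-KO (SD, n = 3). Krt18 averaged 0.549 ± 0.0898 and 0.386 ± 0.220 CPM, while Trp63 averaged 0.583 ± 0.0173 and 0.835 ± 0.301 CPM. The part of these markers was not tested.

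**Figure D5:**
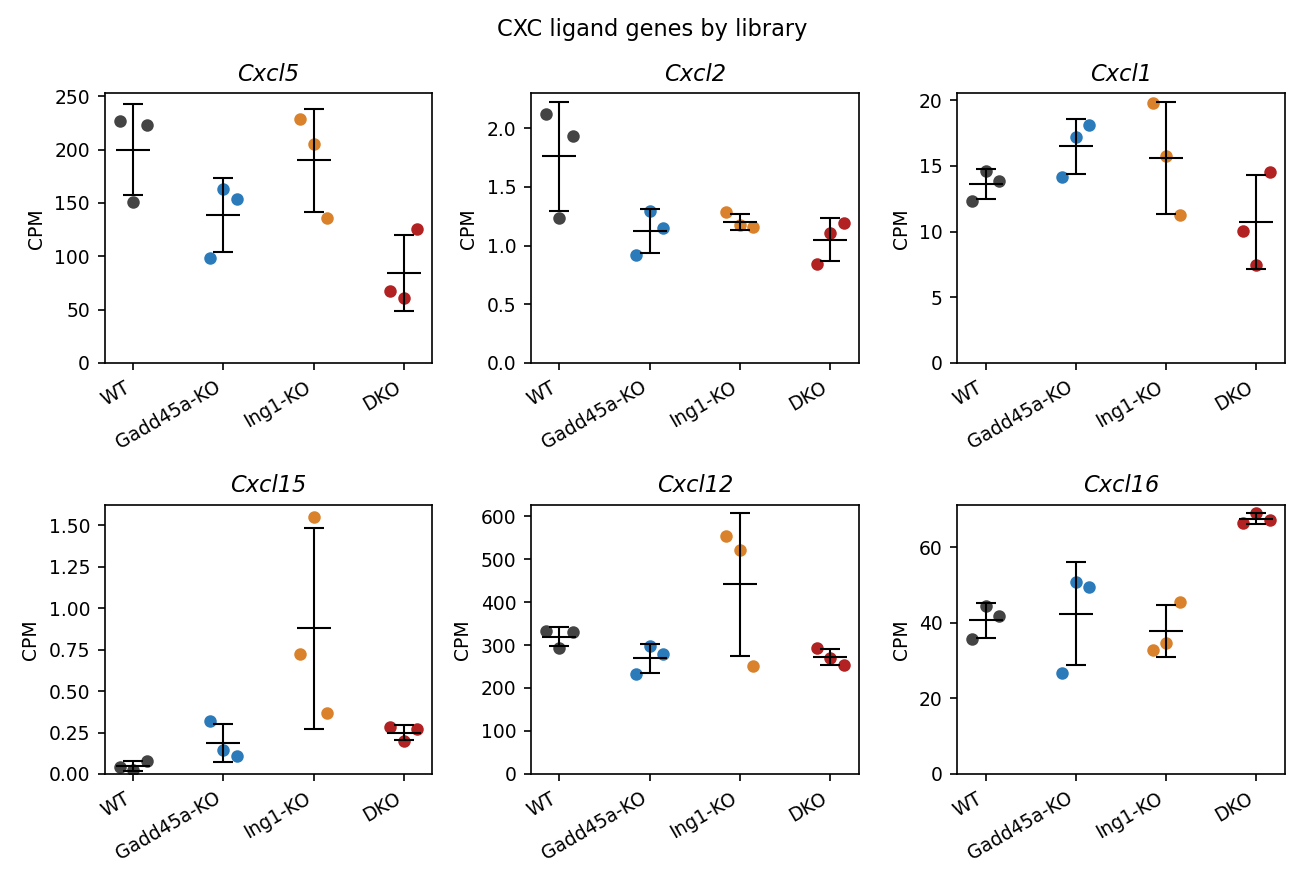
CPM of 6 CXC ligand genes, with 1 point per library and the mean with SD by genotype, each panel on its own linear axis from 0. Cxcl5 is lowest (60.5 to 125 CPM) and Cxcl16 highest (66.4 to 69.2 CPM) in the libraries labelled DKO, Cxcl15 is highest in Ing1-KO, and Cxcl12 splits Ing1-KO into 2 high libraries and 1 low one.

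Cxcl12 (ENSMUSG00000061353), or SDF-1, binds CXCR4 and the scavenger ACKR3. It stood at 334, 294 and 331 CPM in WT, 232, 297 and 279 CPM in libraries labelled Gadd45a-KO, 553, 522 and 250.4 CPM in Ing1-KO and 292, 269.5 and 255 CPM in those labelled DKO. Replicates 1 and 2 of Ing1-KO were the highest of all 12 and replicate 3 the second lowest, and no comparison called the gene. Adipocyte marker sums in those Ing1-KO libraries were 6689, 2517 and 1017 CPM, so replicate 3 was lowest there too. The libraries labelled Gadd45a-KO and DKO did not keep that order: the lowest Cxcl12 value of the former and the highest of the latter stood in their replicates 1, with marker sums of 3613 and 776 CPM, while the lowest of the latter stood with 924 CPM, the highest sum of its group. Cxcr4 was at 7.13 ± 1.73 CPM in WT (SD, n = 3) and 23.2 ± 2.53 CPM in the libraries labelled DKO, where it rose by 1.70 on the log2 scale (edgeR adjusted p = 0.0324). The leukocyte list was highest in the same libraries, and in replicate 1 labelled Gadd45a-KO, where that list was low, Cxcr4 stood at 4.76 CPM against 13.3 and 12.9 CPM in the other two. The part of that list was not tested. Ackr3 stayed between 19.1 and 49.7 CPM and was not called.

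Cxcl16 (ENSMUSG00000018920), a membrane-bound ligand of CXCR6 that also takes up oxidised lipoprotein, was measured at 35.6, 44.6 and 41.9 CPM in WT. The libraries labelled Gadd45a-KO gave 26.7, 51.0 and 49.5 CPM, Ing1-KO 32.8, 34.8 and 45.6 CPM and those labelled DKO 66.4, 69.2 and 67.1 CPM. The last group lay above all 9 other libraries. Cxcl16 rose by 0.84 on the log2 scale against Ing1-KO (SE 0.217, edgeR adjusted p = 0.0381), 1 of 4 members called there beside 11.7% of all genes, with Cxcl5, Ccl7 and Ccl2 lower. Against WT its log2 fold change of 0.73 missed the threshold (SE 0.216, edgeR adjusted p = 0.052) and passed under 8 of 21 alternatives.

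A gene on the opposite strand, Zmynd15, overlaps Cxcl16, the library kit does not mark strand, and reads of the overlap cannot be assigned to either. Zmynd15 itself rose from 12.7 ± 1.51 to 32.5 ± 1.33 CPM (SD, n = 3) in the libraries labelled DKO against WT (edgeR adjusted p = 0.0276). The leukocyte list was highest in the same libraries, and its part in the Cxcl16 values was not tested. In the comparison with Ing1-KO, all 4 calls were lost without replicate 2 of Ing1-KO, replicate 1 labelled DKO or replicate 2 labelled DKO. That comparison called 1 member without Ing1-KO replicate 1, 2 without WT replicate 3, 6 without Gadd45a-KO replicate 1 and 7 without Ing1-KO replicate 3.

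Cxcl14, a constitutive ligand of fibroblasts and epithelia, ranged from 42.6 to 81.7 CPM, and its genotype means lay between 53.4 and 66.0 CPM. The interferon-induced CXCR3 ligands were low: Cxcl9 ranged from 1.19 to 3.69 CPM and Cxcl10 from 0.822 to 2.76 CPM, and neither was called. Their receptor gene Cxcr3 lay between 0.378 and 0.933 CPM. Cxcl10 overlaps Art3 on the opposite strand, at 0.0883 to 0.438 CPM. Cxcl13 and Cxcl17 had at most 3 reads in any library.

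Ccl20 (ENSMUSG00000026166), the ligand of CCR6, was the 1 member called higher than WT in the libraries labelled DKO. It stood at 0.776, 1.13 and 1.21 CPM in WT, 2.13, 1.01 and 0.637 CPM in those labelled Gadd45a-KO, 1.24, 1.30 and 1.85 CPM in Ing1-KO and 3.76, 3.42 and 1.73 CPM in those labelled DKO. The last group lay above WT without overlap but overlapped both single mutants through its lowest library. The rise was 2.83-fold (SE 0.410 on the log2 scale, edgeR adjusted p = 0.0381) and was lost in 8 of 20 alternatives, with adjusted p up to 0.144. The libraries whose loss ended it were replicates 1, 2 and 3 of WT, 2 of Ing1-KO and 1 and 2 labelled DKO.

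Among the other ligands for lymphocytes and dendritic cells, Ccl25 was at 1.15 to 1.93 CPM in all libraries. It overlaps Elavl1 on the opposite strand, which stood at 63.8 to 71.0 CPM. Ccl17 lay between 0.173 and 0.756 CPM, Ccl22 had at most 2 reads a library and Ccl1 1 read in all. Ccl19 and Ccl28 had none, and neither had Ccl26 or Xcl1. A count of 0 allows up to 3 reads, 0.0704 CPM in the shallowest library, for counting error only.

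Cx3cl1 (ENSMUSG00000031778), or fractalkine, a membrane-bound ligand with a mucin-like stalk, varied little. Its genotype means were 30.5 ± 3.17 CPM in WT (SD, n = 3), 32.9 ± 2.92 in the libraries labelled Gadd45a-KO, 31.3 ± 2.78 in Ing1-KO and 28.1 ± 6.33 in those labelled DKO. All 3 comparisons with WT overlapped, with log2 fold changes between -0.12 and 0.11. Its receptor gene Cx3cr1 was at 27.1 to 82.2 CPM.

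Counted without regard to the test, library values of 4, 6 and 12 of the 24 tested members did not overlap with WT in the libraries labelled Gadd45a-KO, Ing1-KO and DKO. Over all genes tested the shares were 12.2%, 26.6% and 37.3%.

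Of 18 chemokine receptor genes 10 were tested, and 1, Cxcr4, rose against WT in the libraries labelled DKO by edgeR, beside 13% of all genes. DESeq2 called 3 of the 10 there. In the other 2 genotypes edgeR and DESeq2 called 0, with 0 and 2 at an unadjusted p under 0.05 in those labelled Gadd45a-KO and in Ing1-KO. Of 4 tested atypical receptors, which bind ligands without signalling through G proteins, 1 was called against WT in the libraries labelled DKO. All genes had 13% called there and 7.09% called lower. Ackr1 fell by 1.89 on the log2 scale (edgeR adjusted p = 0.0131), from 0.654 ± 0.214 to 0.174 ± 0.0695 CPM (SD, n = 3). It was scarce, with 0.0939 to 0.816 CPM over the 12 libraries.

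Among 29 tested genes of NF-kappaB and cytokine signalling, a list of inducers of chemokines together with inhibitors of that route, 5 were called in Ing1-KO against WT, 1 higher and 4 lower, beside 4.32% of all genes. Il1rn, the interleukin-1 receptor antagonist, rose by 1.58 on the log2 scale (edgeR adjusted p = 0.00381). Il17ra, the interleukin-17 receptor, fell by 0.46 (edgeR adjusted p = 0.00892) and Cebpb, a transcription factor of early adipogenesis and of cytokine responses, by 0.23 (edgeR adjusted p = 0.0283). Tnfaip2, induced by tumour necrosis factor, fell by 0.27 (edgeR adjusted p = 0.0374).

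In the libraries labelled DKO, 9 of the 29 were called, 2 higher and 7 lower, beside 13% of all genes called and 7.09% called lower. Cebpb fell by 0.30 (edgeR adjusted p = 0.00659), its partner Cebpd by 0.52 (edgeR adjusted p = 0.0164) and Il17ra by 0.32 (edgeR adjusted p = 0.0171). Tlr4, the endotoxin receptor, rose by 0.63 (edgeR adjusted p = 0.0121). Leukocyte markers were higher in the same libraries (median 0.89), and in replicate 1 labelled Gadd45a-KO Tlr4 stood at 16.3 CPM against 23.6 and 22.4 CPM in the other two. The part of that list was not tested. The median log2 fold change of the 29 genes was -0.11, against -0.0026 for all genes. In those labelled Gadd45a-KO, edgeR and DESeq2 called 0 of 29, with 1 at an unadjusted p under 0.05.

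The interferon route to the CXCR3 ligands had 1 call of 14 genes in the libraries labelled DKO, a share of 7.14% beside 13% of all genes: Ifngr2, a subunit of the interferon gamma receptor, which rose by 0.27 (edgeR adjusted p = 0.00972). Of 18 genes for matrix anchors and chemokine-cleaving proteases, 3 were called in Ing1-KO, beside 4.32% of all genes: Mmp2, a protease that clips Ccl7 and Cxcl12, rose by 0.46 (edgeR adjusted p = 0.0326), Sdc2 rose by 0.30 and Mmp12 fell by 0.73. In the libraries labelled DKO 1 of the 18 was called, beside 13% of all genes: Gpc1, a heparan sulfate carrier, fell by 0.42 (edgeR adjusted p = 0.00856).

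Chemokines outside the naming rule were Pf4, Ppbp and Ccl27a. Pf4, a platelet and macrophage CXC chemokine, stood at 25.01 ± 1.29 CPM in WT (SD, n = 3) and 45.1 ± 3.68 CPM in the libraries labelled DKO and was not called. Ppbp, scarce at 0.338 to 1.25 CPM, was called higher in the averaged Ing1 contrast (0.96 on the log2 scale, edgeR adjusted p = 0.0315).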

How the data were processed

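Each of the 12 deposited tables lists whole-number read counts by Ensembl gene, not normalized by the authors. Per the labels' protocols they come from single-end reads of TruSeq RNA v2 libraries, and per the submitters' processing notes the tools were HTSeq 0.5.4, Bowtie2 2.1.0 and TopHat2 2.0.9, beside DESeq and FastQC, on builds mm9 and NCBIM37. The strand setting is not given in the sources used here. The 5 lines that name no gene held 24.2% to 24.8% of each file and were left out. Symbols, exon lengths, gene order and coding sequences came from GENCODE M21 (GRCm38), and promoters from RefSeq. They are of a later build than the counts, and were joined by gene only.

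Computed here were CPM on effective library sizes and edgeR 4.0.16 quasi-likelihood tests (R 4.3.3; TMM, factors 0.986 to 1.01; filterByExpr; robust; 1 fit of 12 libraries with 8 residual degrees of freedom; Benjamini-Hochberg over 16163 genes; adjusted p under 0.05). The SE is the log2 fold change over the square root of F. Alternatives used DESeq2 1.42.0 and limma 3.58.1, and the steps were tested on simulated data. Every member of at least 1 CPM is named. Called members are given in every library, and of the other lists at most 4 calls per comparison with WT, by adjusted p. Ccr1, Ccr2, Cxcr2, Cxcr3, Cxcr4, Cx3cr1 and Ackr3 could be named whatever their values. One gene of the receptor list is not reported here and was left out of its counts. Members and lists were chosen with earlier results of these data known.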

Additional observations from a re-analysis of the deposited data

How the results depend on the processing

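No log2 fold change of a called member reversed under any alternative. Of 20 calls of a member in a comparison, 7 held under every alternative run except the 2-fold minimum, which none of them reaches: Ccl2 and Ccl7 in Ing1-KO against WT, in the libraries labelled DKO against WT and in the averaged Ing1 contrast, and Ccl2 in those labelled DKO against Gadd45a-KO. Leaving out 1 library gave 0 to 0 called members for the libraries labelled Gadd45a-KO against WT, 2 to 4 for Ing1-KO, 2 to 7 for DKO, 1 to 3 for DKO against Gadd45a-KO, 0 to 7 for DKO against Ing1-KO, 2 to 6 for the averaged Ing1 contrast, 0 to 5 for the averaged Gadd45a contrast and 0 to 1 for the interaction. The count of 21 expressed members held at 21 throughout those.

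Without a low-count filter 3 members were called in the libraries labelled DKO against WT and 2 against Ing1-KO. DESeq2 called 5 in DKO against Gadd45a-KO, 7 against Ing1-KO, 6 in the averaged Ing1 contrast and 6 in the averaged Gadd45a contrast, where limma-voom called 1. Requiring a 2-fold change as well left 1 in Ing1-KO against WT, 3 in DKO against WT, 0 in DKO against Gadd45a-KO, 1 in DKO against Ing1-KO, 1 in the averaged Ing1 contrast and 0 in the averaged Gadd45a contrast. The member left in Ing1-KO against WT and in the averaged Ing1 contrast was Cxcl15, which is not read as a result. Ccl2 and Ccl7 did not reach 2-fold in either. Fitting only the 6 libraries compared gave 2 in DKO against Ing1-KO. The cause of these differences was not tested, except that the fold minimum and the missing filter change the genes counted or tested by construction. The legacy quasi-likelihood fit was added after seeing the data.

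Replicate numbers did not pair the libraries: of 18 correlations between same-numbered libraries 2 exceeded 0.1 (range -0.19 to 0.25), and 5 of 12 libraries correlated best with their own number. With the replicate block, 4 calls were lost and 1 gained, and the averaged Gadd45a contrast called 1.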
